A study of Homo sapiens with 6 samples.

Results

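The 78 genes described here encode proteins of the mitochondrial ribosome. They are the protein-coding rows of the deposited table whose symbol is MRPL or MRPS followed by a number, 78 of 60624 gene identifiers. By symbol, 49 belong to the large subunit (MRPL) and 29 to the small subunit (MRPS). Another 87 identifiers with MRPL or MRPS symbols are pseudogenes, antisense RNAs and other transcripts that do not encode protein, and they were left out.

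Mitochondria keep a small genome of their own and translate its mRNAs on a dedicated ribosome in the matrix. The RNA of that ribosome is transcribed inside the organelle, whereas all of its proteins are encoded in the nucleus, made in the cytosol and imported. Its products are core subunits of the respiratory chain and of ATP synthase, so a cell that respires needs nuclear and mitochondrial genes to supply parts of the same complexes. Many of the proteins descend from bacterial ribosomal proteins, and others joined the ribosome only after mitochondria arose.

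RNA was measured in SV-HUC-1. It is a cell line grown from human urothelium, the lining of the urinary tract, and immortalised with SV40, so it is a single source and not primary bladder tissue. The control group was 3 libraries of cells kept in blank solution for 3 days. The other group was 3 libraries of cells exposed for 3 days to DCBQ (2,6-dichloro-1,4-benzoquinone), a halogenated quinone that forms when drinking water is disinfected. The concentration is not given in the sources used here, and the labels do not say whether separate cultures were used for the libraries within a group. The p-values therefore cover only the spread between libraries, which may be technical. RNA was selected for poly(A) tails before sequencing.

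Each library listed from 26874 to 27350 genes above 0. Values are TPM, a level scaled for gene length and for a library total of 1000000, so the sequencing depth is unknown. Of the 14 urothelial and epithelial markers examined, 11 had a mean of at least 1 TPM, including KRT5, EPCAM, GATA3 and UPK2, while TP63, UPK1A and UPK3A were at or near 0. Their summed level was 4484 to 4679 TPM in control and 6165 to 6491 TPM in DCBQ. Fibroblast markers summed to 6.17 to 7.27 TPM in control and 13.9 to 15.9 TPM in DCBQ, nearly all of it COL1A1, with COL1A2, COL3A1, DCN and LUM at 0 in all 6 libraries. Leukocyte markers summed to 3.07 to 4.70 TPM and 8.25 to 9.01 TPM, nearly all of it CD68, with LYZ at 0 and PTPRC near 0. The part of these markers in the results was not tested.

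Exposure to DCBQ went with small changes in both directions among the mitochondrial ribosomal protein genes. A gene was called when its adjusted p in limma's moderated test on log2(TPM + 1) over 16734 genes was under 0.05. Of the 77 tested members, 15 rose in DCBQ, 18 fell and 44 did not pass. The share called higher was 19.5%, beside 13.4% of all tested genes, and the share called lower was 23.4%, beside 39.5%. In either direction 42.9% of the members were called, beside 52.9% of all tested genes. The control and DCBQ libraries did not overlap for 40 members (51.9%), 16 higher and 24 lower in DCBQ, beside 61.2% of all tested genes. In bulk RNA such as this, fewer cells of a type and less RNA per cell cannot be told apart.

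The sizes of the differences were modest. The log2 differences of the members ran from -0.83 to 0.57 with a median of -0.04 and an interquartile range of 0.37. Over all tested genes the median was -0.21 and the interquartile range 0.61. On the log2 scale 0 of 77 members and 7.70% of all tested genes differed by 1 or more, and 7 members (9.09%) and 34.4% of all tested genes by 0.5 or more. Among the 9010 tested protein-coding genes in the members' own range of levels, a set chosen after the values had been seen, 66.2% were called, 33.0% differed by at least 0.5 and 6.27% by at least 1. The ratio of mean TPM reached 1.47-fold for the increases and 1.81-fold for the decreases.

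**Figure D1:**
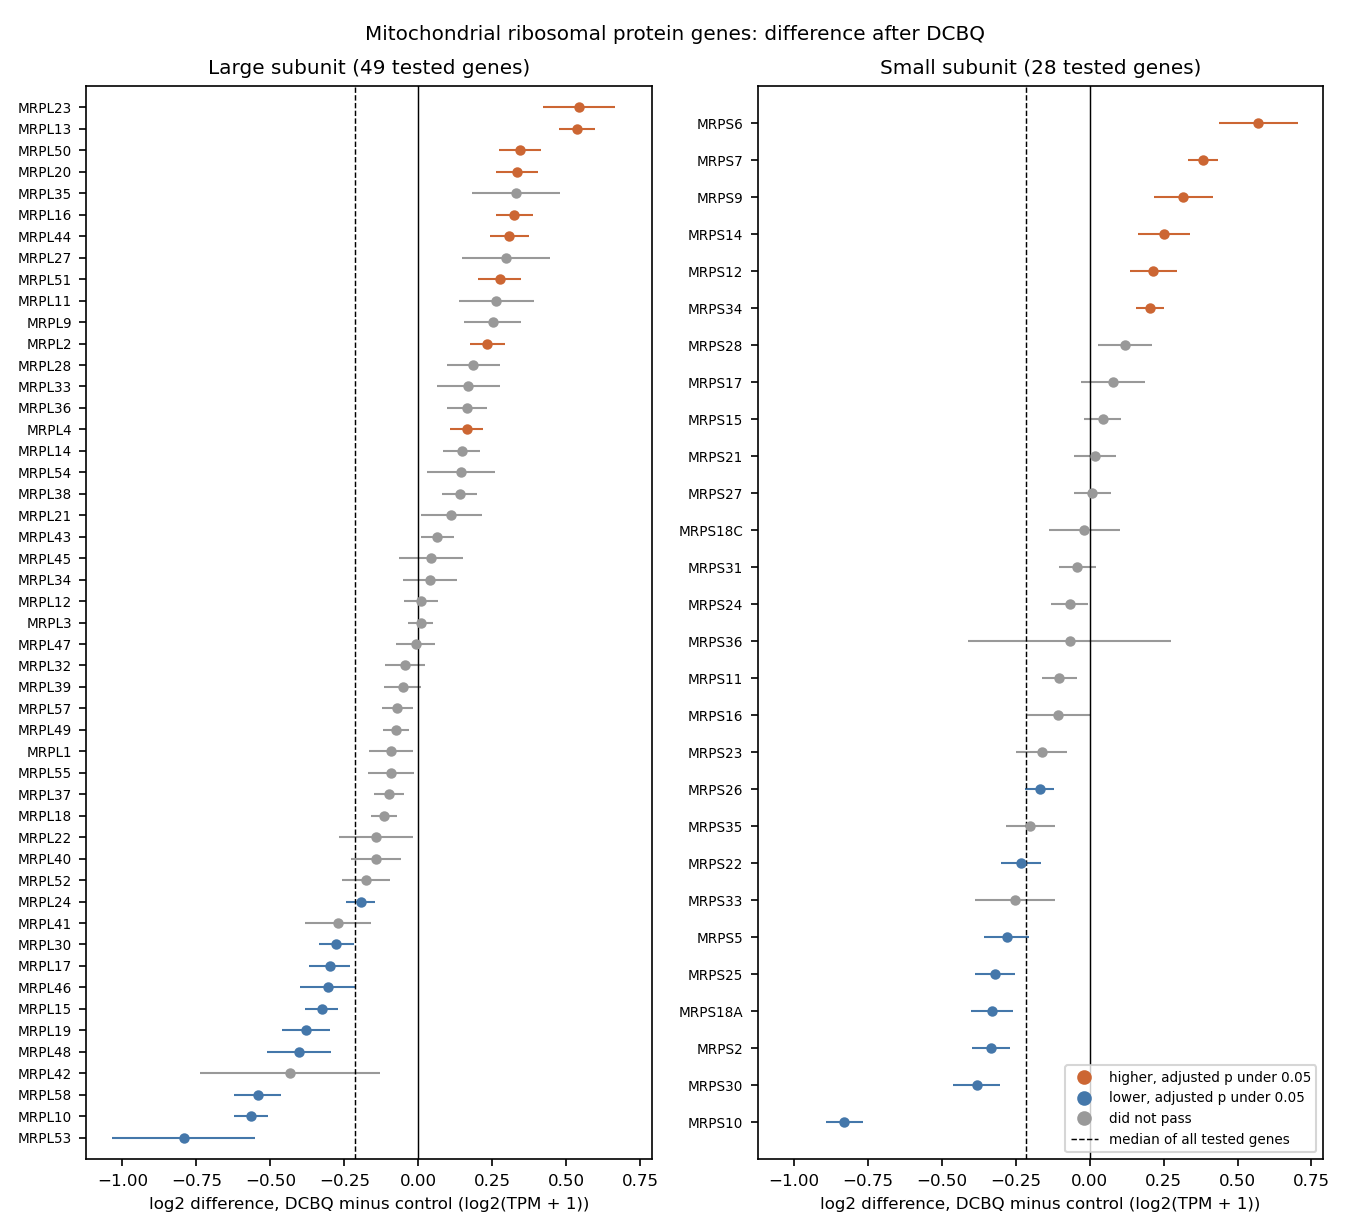
Log2 difference between DCBQ and control (x axis, log2(TPM + 1)) for each tested gene of the large and of the small subunit, with its standard error. Orange marks genes called higher, blue genes called lower and grey genes that did not pass, and the dashed line marks the median of all tested genes at -0.21. All points lie between -0.83 (MRPS10) and 0.57 (MRPS6).

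The balance of directions depended on the scaling. As deposited, the median tested gene was lower in DCBQ by 0.21 on the log2 scale, and median-of-ratios scaling moved that median to -0.004. After median-of-ratios scaling 37 members were higher (23.9% of all tested genes were) and 3 were lower (23.3% of all tested genes were). After quantile normalization 34 members were higher (22.8% of all tested genes) and 4 were lower (23.7% of all tested genes). All 15 members called higher as deposited stayed higher under both. Of the 18 called lower, MRPL10, MRPL58 and MRPS10 stayed lower under both and MRPS2 under quantile normalization only. The log2 difference turned positive for 3 of the 18 under median-of-ratios scaling and for 1 under quantile normalization, and limma called 0 of the 18 higher (0 also at an unadjusted p under 0.05) under either. Beside this shift, transcripts of the mitochondrial genome took 21.5% ± 0.64 (SD, n = 3) of all TPM in control and 28.4% ± 0.42 (n = 3) in DCBQ. When the TPM were rescaled without them, 26 members were higher (17.2% of all tested genes were) and 7 were lower (27.7% of all tested genes were). The median of the members was -0.04 as deposited and turned positive under median-of-ratios scaling (0.19), quantile normalization (0.16) and rescaling without mitochondrial transcripts (0.09).

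Promoters of the members were searched for motifs that were not used to choose them. RefSeq (GRCh38.p14) lists a promoter of 300 bases, 250 before to 50 after the transcript start, for 69 of the 78 members, and the first listed start was used. The searched letters, on both strands, were GCGCATG for NRF1, CCGGAAG for the ETS family that includes GABP, AAGATGG for YY1 and GGGCGG for SP1. NRF1, GABP and YY1 are transcription factors known for binding promoters of nuclear genes for mitochondrial proteins. The letters were settled after several forms had been counted, and in 1 member promoter matches of different motifs overlap. The 6 promoters below, cut to 150 bases from 100 before to 50 after the start, are from a few genes that changed, with NRF1, ETS and YY1 matches in capitals. MRPS6 is shown as a changed member with none of these 3 in its promoter. They are reference sequences and were not read from these cells.
MRPS10 (lower in DCBQ, chr6:42217812-42217961, minus strand): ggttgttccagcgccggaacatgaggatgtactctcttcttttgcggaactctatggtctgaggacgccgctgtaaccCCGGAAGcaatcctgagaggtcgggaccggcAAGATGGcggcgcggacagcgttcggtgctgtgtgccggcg
MRPL20 (higher, chr1:1407244-1407393, minus strand): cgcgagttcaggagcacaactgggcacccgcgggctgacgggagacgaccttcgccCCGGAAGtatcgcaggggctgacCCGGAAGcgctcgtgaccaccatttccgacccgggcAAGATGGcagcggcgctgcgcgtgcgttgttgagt
MRPL58 (lower, chr17:75012570-75012719, plus strand): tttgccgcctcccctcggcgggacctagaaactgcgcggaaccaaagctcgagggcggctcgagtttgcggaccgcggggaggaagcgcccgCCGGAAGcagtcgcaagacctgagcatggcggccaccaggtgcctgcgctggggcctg
MRPS7 (higher, chr17:75261779-75261928, plus strand): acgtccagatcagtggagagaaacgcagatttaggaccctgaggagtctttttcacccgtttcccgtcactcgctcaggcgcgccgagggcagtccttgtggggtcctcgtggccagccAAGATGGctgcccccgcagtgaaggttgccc
MRPL17 (lower, chr11:6683291-6683440, minus strand): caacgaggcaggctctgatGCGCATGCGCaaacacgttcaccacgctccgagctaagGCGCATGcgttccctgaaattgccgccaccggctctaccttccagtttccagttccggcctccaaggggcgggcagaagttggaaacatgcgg
MRPS6 (higher, chr21:34073478-34073627, plus strand): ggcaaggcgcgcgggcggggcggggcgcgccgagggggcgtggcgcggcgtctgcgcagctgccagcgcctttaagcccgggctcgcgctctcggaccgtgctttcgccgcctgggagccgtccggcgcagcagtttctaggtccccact

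The ETS letters stood in 29 of 69 member promoters (42.0%), beside 19.4% of 10066 other tested protein-coding genes and 10.7% of all 27303 promoters in the table. The YY1 letters stood in 23 (33.3%), beside 7.33% and 6.06%, with a median place 9 bases after the transcript start, so that 16 of the 24 matches lay within the gene. These letters contain ATG, the start codon, and whether the matches overlap the start of translation was not tested. NRF1 letters stood in 7 (10.1%), beside 7.58% and 4.67%. SP1 letters were the exception in direction, with 42 member promoters (60.9%) beside 71.4% of other tested protein-coding genes and 44.6% of all promoters. ETS and YY1 letters stood together in 9 member promoters (13.0%) and in 1.71% of the other tested protein-coding genes, as in MRPS10 and MRPL20 above. With 1 base more, YY1 (AAGATGGC) was found in 20 of 69 member promoters and in 5.27% of the others, ETS (CCGGAAGT) in 15.9% and 8.89%, and NRF1 (GCGCATGC) in 8.70% and 5.50%.

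ETS and YY1 letters were present in members of every kind of call. NRF1 letters stood in only 7 of 69 member promoters (10.1%), and 0 of 12 among the called-higher members is near that share. ETS letters stood in 5 of the 12 called-higher members with a listed promoter, in 8 of the 16 called lower and in 16 of the 40 that did not pass. YY1 letters stood in 5 of 12, 4 of 16 and 13 of 40, NRF1 letters in 0 of 12, 2 of 16 and 4 of 40, and SP1 letters in 11 of 12, 9 of 16 and 22 of 40. In large and small subunit promoters the shares were 40.5% and 44.4% for ETS and 33.3% and 33.3% for YY1. They were 11.9% and 7.41% for NRF1, 54.8% and 70.4% for SP1, and 21.4% and 7.41% for the longer ETS letters, and these differences were not tested. These are matches of letters in a window and are not measured binding sites. MRPL2, MRPL10, MRPL13, MRPL15, MRPL21, MRPL23, MRPL35, MRPS28 and MRPS36 had no entry.

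**Figure D2:**
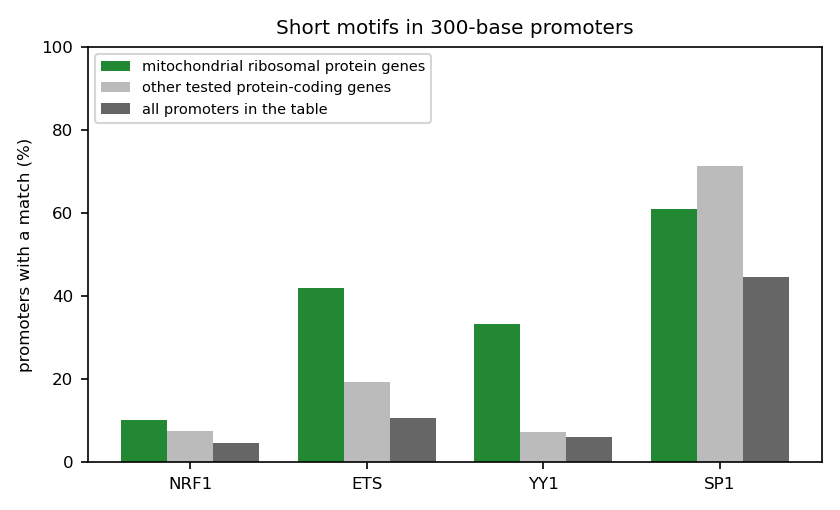
Share of promoters (y axis, percent) with at least 1 match to the letters of each motif, for the 69 member promoters, 10066 other tested protein-coding genes and all 27303 promoters. The ETS share is 42.0% in members against 19.4% in other tested genes and the YY1 share is 33.3% against 7.33%, while the SP1 share is 60.9% against 71.4%.

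Among the increases, the small subunit genes MRPS6 and MRPS7 had large changes for the family. MRPS6 encodes the relative of a bacterial small subunit protein and lies at chr21:34073224-34143034 (GENCODE 29, GRCh38, as for all genes below). It was listed at 36.2, 46.2 and 55.5 TPM in the control libraries and at 66.1, 69.4 and 67.8 TPM in the DCBQ libraries. The control libraries were spread wide, but all 3 lay below all DCBQ libraries. The log2 difference was 0.57 ± 0.13 (SE), with a limma adjusted p of 0.00722 and a 1.47-fold higher mean. SLC5A3, which shares its strand and locus, was at 12.5 TPM in control and 10.5 TPM in DCBQ.

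MRPS7 (chr17:75261674-75266373) encodes a protein of the small subunit head that binds the ribosomal RNA, as its bacterial relative does. Control libraries held 67.4, 61.4 and 66.0 TPM and DCBQ libraries 85.4, 85.6 and 83.7 TPM. The DCBQ libraries lay close together and above all controls. The difference was 0.38 ± 0.05 on the log2 scale, with a limma adjusted p of 0.000430.

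In the large subunit, MRPL23 and MRPL13 rose by similar amounts. MRPL23 (chr11:1947278-1984522) encodes a protein at the mouth of the tunnel through which the new peptide leaves. Its level was 31.8, 27.4 and 34.9 TPM in control and 44.4, 40.3 and 54.2 TPM in DCBQ, without overlap, a log2 difference of 0.54 ± 0.12 (limma adjusted p = 0.00625). The antisense RNA MRPL23-AS1 overlaps the gene and went the other way, from 2.43, 1.51 and 2.44 TPM to 0.872, 1.01 and 0.738 TPM (log2 difference -0.73, adjusted p = 0.0160). MRPL13 (chr8:120380761-120445402), the relative of a bacterial large subunit protein, was at 30.8, 30.5 and 33.2 TPM in control and at 44.3, 47.8 and 46.2 TPM in DCBQ. Its groups stood well apart, with a difference of 0.54 ± 0.06 and an adjusted p of 0.000180.

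Of the other increases of the large subunit, those of MRPL50, MRPL20, MRPL16 and MRPL44 are given next. MRPL50 (chr9:101387633-101398614), a protein found only in mitochondrial ribosomes and 1 of the least abundant members, went from 17.1, 16.2 and 15.8 TPM to 20.6, 20.6 and 21.9 TPM. MRPL20 (chr1:1401908-1407313), a relative of a bacterial protein, went from 67.8, 76.2 and 75.2 TPM to 100.5, 87.5 and 89.0 TPM. Both pairs of groups were separate, with log2 differences of 0.34 ± 0.07 for MRPL50 and 0.33 ± 0.07 for MRPL20 (limma adjusted p = 0.00408 and 0.00469). MRPL20-AS1, antisense to MRPL20, fell from a mean of 14.1 to 10.9 TPM (adjusted p = 0.0131).

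MRPL16 (chr11:59806135-59810872), whose bacterial relative helps to place transfer RNA on the large subunit, was at 65.7, 59.2 and 68.3 TPM in control and at 81.6, 78.4 and 82.1 TPM in DCBQ. MRPL44 (chr2:223957404-223967714), a mitochondria-specific protein with a fold related to ribonuclease III, was at 35.4, 32.0 and 31.1 TPM and at 41.8, 40.6 and 40.0 TPM. The log2 differences were 0.32 ± 0.06 and 0.31 ± 0.07 (limma adjusted p = 0.00281 and 0.00477), and neither gene's groups overlapped. The remaining called increases were those of MRPS9, MRPL51, MRPS14, MRPL2, MRPS12, MRPS34 and MRPL4, with log2 differences from 0.16 to 0.32. MRPS9 was the 1 called member whose groups overlapped, since its highest control library (45.2 TPM) exceeded its lowest DCBQ library (45.1 TPM).

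MRPS10 had the largest change of the family as deposited, a decrease. The gene (ENSG00000048544, chr6:42206801-42217865) encodes the relative of a bacterial protein of the small subunit head. It was listed at 50.3, 46.9 and 48.5 TPM in control and at 27.1, 28.1 and 25.4 TPM in DCBQ. Replicates were tight in both groups and the highest DCBQ library lay far below the lowest control. The log2 difference was -0.83 ± 0.06 (limma adjusted p = 2.2e-05), a mean 1.81-fold lower. It stayed lower in all 16 alternative analyses, with log2 differences from -0.86 to -0.58. After median-of-ratios scaling MRPS6 (0.81), MRPL23 (0.78), MRPL13 (0.77) and MRPS7 (0.62) differed by more than MRPS10 (-0.59). After quantile normalization MRPL23 (0.79), MRPL13 (0.79), MRPS6 (0.77), MRPL50 (0.62) and MRPL35 (0.60) differed by more than MRPS10 (-0.58).

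MRPL10 and MRPL58 were the other members that stayed lower in all 16 alternatives. MRPL10 (chr17:47823272-47831534) forms the base of the stalk that carries MRPL12 and recruits translation factors. It was at 78.8, 74.2 and 78.6 TPM in control and at 49.7, 50.9 and 55.1 TPM in DCBQ, groups that stood far apart, with a log2 difference of -0.56 ± 0.06 (limma adjusted p = 0.000102). MRPL58 (chr17:75012670-75021261), also known as ICT1, is a peptidyl-tRNA hydrolase that releases stalled ribosomes and is also built into the large subunit. It was at 70.7, 81.7 and 81.1 TPM in control and at 56.1, 48.4 and 54.8 TPM in DCBQ, again without overlap, with a difference of -0.54 ± 0.08 (adjusted p = 0.000659).

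MRPL53 and MRPL48, both specific to mitochondria, were lower with wider replicate spread. MRPL53 (chr2:74471958-74473322) was at 39.6, 27.2 and 42.3 TPM in control and at 25.4, 13.6 and 23.7 TPM in DCBQ. Library 2 was the lowest in each group, and the groups were separated by less than 2 TPM. The log2 difference was -0.79 ± 0.24 (limma adjusted p = 0.0240). Its call was lost without control 1 (adjusted p = 0.0722) or control 3 (0.0758), and without DCBQ 2 the difference shrank to -0.52, over alternatives whose adjusted p ran from 0.000585 to 0.144. MRPL48 (chr11:73787316-73865133) was at 34.3, 41.3 and 40.0 TPM in control and at 26.1, 33.5 and 27.4 TPM in DCBQ, with groups that nearly touched. Its difference was -0.40 ± 0.11 (adjusted p = 0.0143), and the call was lost without control 2 (0.0511) or DCBQ 1 (0.0503), over alternatives from 0.00352 to 0.284.

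The other 3 of the 8 largest decreases were MRPS30, MRPL19 and MRPS2. MRPS30 (chr5:44808925-44820428) carries a small subunit symbol, but its protein sits in the large subunit. It was at 59.6, 59.8 and 50.6 TPM in control and at 40.4, 43.9 and 45.2 TPM in DCBQ, without overlap (log2 difference -0.38 ± 0.08, limma adjusted p = 0.00427). MRPL19 (chr2:75646783-75690851), the relative of a bacterial protein, was at 25.4, 28.2 and 24.6 TPM in control and at 21.2, 18.9 and 19.3 TPM in DCBQ, also without overlap (-0.38 ± 0.08, adjusted p = 0.00469). GCFC2, on the opposite strand of the same locus, was also lower, at 18.9 TPM in control and 10.6 TPM in DCBQ. MRPS2 (chr9:135499984-135504673), the second most abundant member in control, was at 185.2, 164.1 and 187.5 TPM and at 148.3, 134.0 and 142.8 TPM (-0.33 ± 0.06, adjusted p = 0.00279). Its DCBQ libraries all lay below its lowest control. After median-of-ratios scaling none of MRPL53, MRPL48, MRPS30, MRPL19 and MRPS2 passed the test, though all kept a negative difference.

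**Figure D3:**
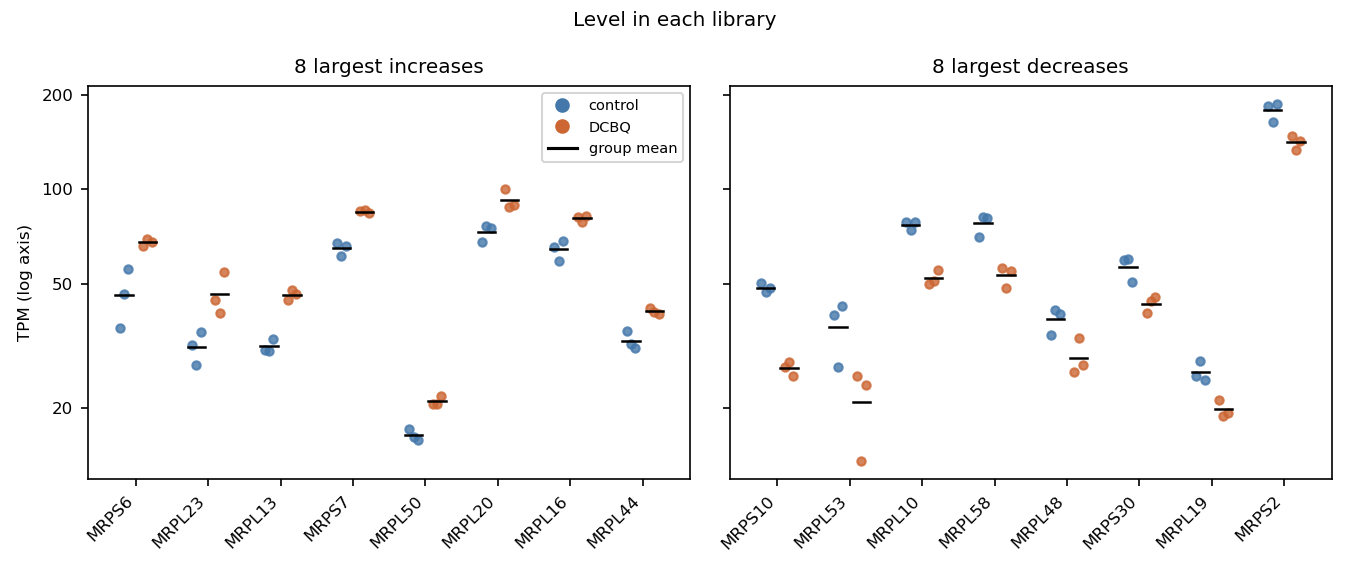
TPM in each library (y axis, log scale) for the 8 largest called increases and the 8 largest called decreases among members whose groups do not overlap, a condition that leaves out MRPS9. Blue points are control libraries, orange points DCBQ libraries and black lines group means. MRPS10 falls from a mean of 48.6 to 26.9 TPM while MRPL53 shows the widest replicate spread.

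Of the 33 called members, 13 were called in the same direction in all 16 alternatives. The higher ones were MRPL2, MRPL13, MRPL16, MRPL20, MRPL23, MRPL44, MRPL50, MRPS6, MRPS7 and MRPS34, and the lower ones MRPL10, MRPL58 and MRPS10. Calls lost by leaving out 1 library were found for 10 of the 33, of which MRPL53 and MRPL48 are given above. MRPL51 lost its call without DCBQ 3 (limma adjusted p = 0.0529, over alternatives from 0.00131 to 0.0529), and MRPS26 without control 2 (0.0682, over alternatives from 0.0163 to 0.590). MRPS22 lost it without control 1 (0.0674), control 2 (0.0615) or DCBQ 1 (0.0560), over alternatives from 0.00628 to 0.937. For MRPL46 the call was lost without control 1 (0.0866), control 2 (0.0680), DCBQ 2 (0.0759) or DCBQ 3 (0.0662), over alternatives from 0.0111 to 0.619. MRPS9 lost it without control 1 (0.0866), control 2 (0.0647), DCBQ 1 (0.0877) or DCBQ 3 (0.0883), over alternatives from 0.0047 to 0.0883. MRPS14 lost it without control 1 (0.101), control 2 (0.123), DCBQ 2 (0.113) or DCBQ 3 (0.0771), over alternatives from 0.00104 to 0.123. The calls of MRPS12 and MRPL4 each held without only 1 of the 6 libraries. MRPS12 lost it without any library but control 2, at 0.0505 to 0.155, and MRPL4 without any library but DCBQ 2, at 0.0652 to 0.107, which for both included the highest value over the 16 alternatives. Of the 78 members, 37 overlap another gene listed at 1 TPM or more on average, 29 of them on the opposite strand, and where the counting ignored strand such reads cannot be told apart.

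Large and small subunit genes were compared next. In the large subunit 9 of 49 members were higher, 10 lower and 30 did not pass, with a median log2 difference of 0.01. In the small subunit 6 of 28 tested members were higher, 8 lower and 14 did not pass, with a median of -0.07. The shares lower were 20.4% in the large and 28.6% in the small subunit, beside 39.5% of all tested genes. The shares higher were 18.4% and 21.4%, beside 13.4%. Without control 1 or without DCBQ 3, only 3 small subunit members were called higher. After median-of-ratios scaling both medians were positive, at 0.25 with 26 higher and 2 lower in the large subunit and at 0.16 with 11 higher and 1 lower in the small. Of all tested genes 23.9% were then higher and 23.3% lower. Quantile normalization gave 0.18 with 23 higher and 2 lower, and 0.14 with 11 higher and 2 lower. The shares of all tested genes were 22.8% higher and 23.7% lower under it. As deposited, the medians differed by 0.076, but without control 1 by 0.030 and without control 3 by 0.021. Within groups, the large minus small difference in each library's median deviation from the group mean had an SD of 0.025. That SD is a spread between single libraries and not the spread of the 0.076. The 2 subunits thus covered nearly the same range, -0.79 to 0.54 and -0.83 to 0.57, and the difference between them was not tested.

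The summed TPM gave the same order with a small size. The 49 large subunit genes summed to 2989, 2903 and 3072 TPM in control and to 3079, 2846 and 3079 TPM in DCBQ, with overlapping groups. The 29 small subunit genes summed to 1690, 1678 and 1722 TPM in control and to 1671, 1569 and 1644 TPM in DCBQ. Every DCBQ library lay below every control, the closest at 1671 against 1678 TPM. The large to small ratio was 1.77, 1.73 and 1.78 in control and 1.84, 1.81 and 1.87 in DCBQ, a mean 4.67% higher without overlap. The ratio was 3.75% to 5.50% higher with 1 library left out. MRPS2, at a mean of 178.9 TPM in control and 141.7 TPM in DCBQ, and MRPS10 had the largest losses within the small subunit sum. Both subunits together made up 0.468% ± 0.011 (SD, n = 3) of all TPM in control and 0.463% ± 0.019 (n = 3) in DCBQ.

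Symbols do not always give the place of the protein. MRPS18A and MRPS30, both lower in DCBQ, are small subunit symbols of proteins that sit in the large subunit, and MRPS36 is now known as a subunit of the 2-oxoglutarate dehydrogenase complex. With these placed by structure, the ratio was 1.97, 1.92 and 1.95 in control and 1.99, 1.98 and 2.02 in DCBQ. The groups of this ratio still did not overlap, and the rise was 2.62% in place of 4.67%. The median TPM over genes did not keep this order by structure. Its group mean went from 53.1 to 46.9 TPM in the large subunit. In the small subunit it went from 45.5 to 47.1 TPM, with overlapping groups. The median log2 differences by structure were -0.01 in the large and -0.04 in the small subunit. The small subunit sums by structure did overlap, at 1574, 1570 and 1620 TPM in control and 1586, 1481 and 1561 TPM in DCBQ. The cytosolic ribosome, as a comparison, moved the other way, with a ratio of RPL to RPS sums of 1.85, 1.93 and 1.93 in control and 1.76, 1.79 and 1.74 in DCBQ.

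**Figure D4:**
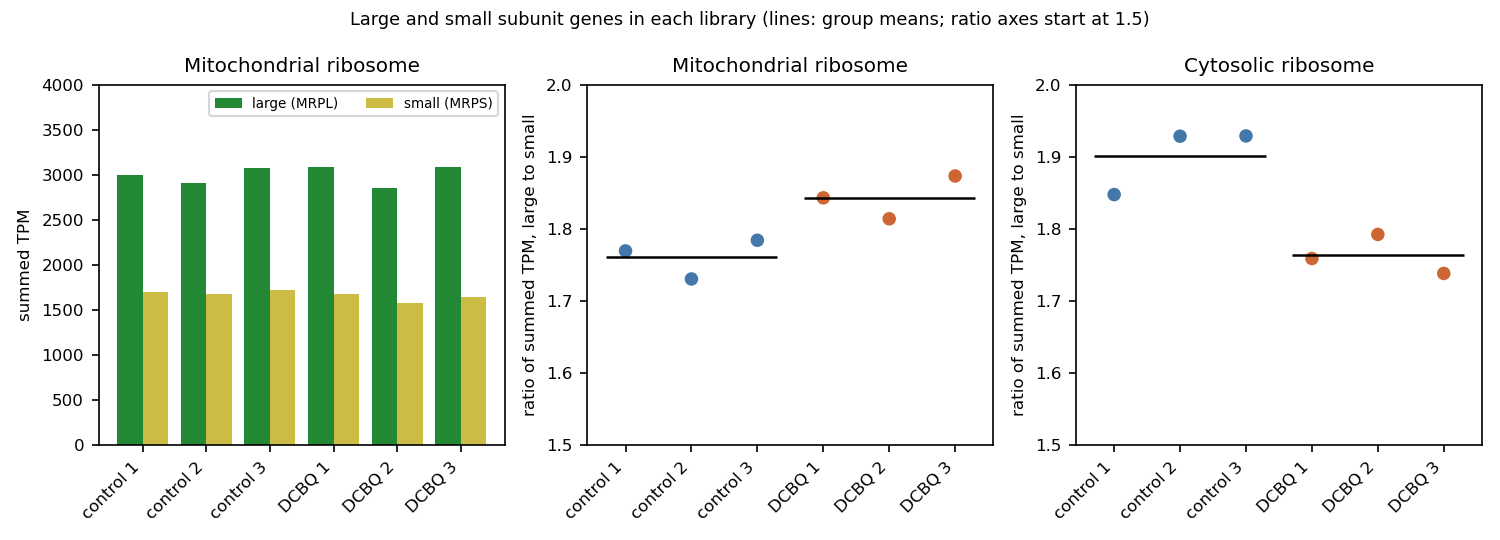
Left, summed TPM of the large and small subunit genes of the mitochondrial ribosome in each library. Centre and right, the ratio of large to small subunit sums for the mitochondrial and the cytosolic ribosome, with group means as lines and axes that start at 1.5. The mitochondrial ratio is 1.73 to 1.78 in control and 1.81 to 1.87 in DCBQ, and the cytosolic ratio is 1.85 to 1.93 in control and 1.74 to 1.79 in DCBQ.

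A split by origin showed a difference in medians as well. Among 46 tested members with a relative among bacterial ribosomal proteins, 11 were higher, 10 lower and 25 did not pass, with a median of 0.04. Another 29 have no such relative and are called mitochondria-specific here. Of these 29, 4 were higher (MRPL44, MRPL50, MRPL51 and MRPS34), 8 lower and 17 did not pass, with a median of -0.14. The shares higher and lower were 23.9% and 21.7% in the first group and 13.8% and 27.6% in the second. Over all tested genes they were 13.4% and 39.5%, with a median of -0.21. After median-of-ratios scaling 26 members with a bacterial relative were higher and 2 lower (median 0.28), and 11 mitochondria-specific members were higher and 1 lower (median 0.09). Of all tested genes 23.9% were then higher and 23.3% lower. After quantile normalization the counts were 24 and 3 (0.25) and 10 and 1 (0.06), beside 22.8% and 23.7% of all tested genes. The mitochondria-specific median was thus positive under both. As deposited, the order held within each subunit, at 0.11 against -0.08 in the large and 0.02 against -0.18 in the small. Without control 1 or DCBQ 3 the count of higher members with a bacterial relative was 7, and without control 1 the count of lower mitochondria-specific members was 5. The difference between these groups was not tested, and MRPL55 and MRPS36 were placed in neither.

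The members were not made at equal levels. Control means ran over a 24.4-fold range, from 7.94 TPM for MRPS36 to 194.0 TPM for MRPS24, and TPM allow such a comparison because they are scaled by length. MRPS24, a relative of a bacterial protein at the mRNA entry, was at 187.7, 193.9 and 200.4 TPM in control and at 196.9, 168.7 and 191.0 TPM in DCBQ, with overlapping groups. Its locus also carries the readthrough gene URGCP-MRPS24, at 12.9 TPM in control and 4.61 TPM in DCBQ. MRPS15, the third of the abundant small subunit genes with MRPS24 and MRPS2, was at 135.7, 134.0 and 146.0 TPM and at 153.5, 132.8 and 143.1 TPM. Among these 3 only MRPS2 passed the test.

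None of the 3 most abundant large subunit genes passed the test as deposited. MRPL37, a mitochondria-specific protein, was at 143.6, 149.4 and 160.3 TPM in control and at 141.8, 138.2 and 142.8 TPM in DCBQ. MRPL12, which forms the flexible stalk and is also reported to bind the mitochondrial RNA polymerase, was at 139.2, 141.5 and 146.4 TPM and at 149.8, 132.4 and 148.0 TPM. MRPL3 was at 117.9, 115.9 and 113.8 TPM and at 113.9, 117.7 and 118.0 TPM. MRPL37 had separate groups but did not pass (log2 difference -0.10 ± 0.05, limma adjusted p = 0.135), and it was positive under the 3 other scalings. MRPL12 (0.01 ± 0.06, adjusted p = 0.906) and MRPL3 (0.01 ± 0.04, adjusted p = 0.882) overlapped. Both were higher after median-of-ratios scaling, MRPL12 by 0.25 (adjusted p = 0.0243, over alternatives from 0.0243 to 0.961) and MRPL3 by 0.25 (adjusted p = 0.0016, over alternatives from 0.0016 to 0.993). MRPL10, which holds MRPL12 on the ribosome, was lower under each of these scalings.

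At the low end, MRPL45, which anchors the ribosome to the inner membrane, was at 7.45, 8.39 and 8.88 TPM in control and at 9.34, 8.23 and 7.98 TPM in DCBQ (log2 difference 0.04 ± 0.11, limma adjusted p = 0.767). Its related pseudogene MRPL45P2 was listed higher, with a mean of 13.0 TPM in control and 9.45 TPM in DCBQ, so reads of the pair may have been split. MRPS36 varied most for its level, at 9.05, 4.28 and 10.5 TPM and at 7.99, 10.1 and 4.32 TPM. MRPS23, a mitochondria-specific protein, was at 11.4, 11.8 and 11.1 TPM and at 9.88, 9.89 and 10.6 TPM, with separate groups that did not pass (-0.16 ± 0.09, adjusted p = 0.144). MRPL54, likewise specific to mitochondria, was at 25.2, 20.3 and 21.6 TPM and at 28.1, 21.5 and 24.8 TPM and did not pass either (adjusted p = 0.327). MRPS14, a relative of a bacterial small subunit protein, was at 18.5, 17.8 and 20.2 TPM in control and at 20.9, 24.8 and 22.1 TPM in DCBQ (0.25 ± 0.09, adjusted p = 0.0405). By level, the median difference as deposited was -0.05 in the 38 less abundant and 0.01 in the 39 more abundant members.

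Members with a special role were described whatever their values. MRPS18A, MRPS18B and MRPS18C are 3 relatives of a single bacterial protein. MRPS18A was at 47.5, 44.1 and 41.0 TPM in control and at 36.7, 34.8 and 33.3 TPM in DCBQ, a decrease without overlap (log2 difference -0.33 ± 0.07, limma adjusted p = 0.00507) that did not pass under the other scalings. MRPS18C was at 20.7, 17.7 and 21.0 TPM and at 18.8, 17.0 and 23.1 TPM and did not pass (-0.02 ± 0.12, adjusted p = 0.913). MRPS18B (ENSG00000204568, chr6:30617709-30626395) was listed at 0 in all 6 libraries and could not be tested. All 31 other protein-coding genes within 500000 bases of it also averaged under 1 TPM, beside 36.8% of the 19881 protein-coding genes in the table. They include TUBB, a tubulin gene, at no more than 0.190 TPM in any library, so an entry of 0 here says only how the gene is listed.

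MRPS12, whose bacterial relative helps the ribosome to read codons accurately, was at 48.2, 57.5 and 54.1 TPM in control and at 66.8, 60.8 and 58.4 TPM in DCBQ. Its groups were separate and it passed narrowly (log2 difference 0.22 ± 0.08, limma adjusted p = 0.0496), a call lost in most of the reanalyses with 1 library left out, as given above. SARS2, the mitochondrial seryl-tRNA synthetase gene on the opposite strand, was at 35.5 TPM in control and 37.0 TPM in DCBQ. MRPS27, a pentatricopeptide repeat protein, was at 53.2, 55.3 and 61.3 TPM and at 57.0, 55.4 and 58.3 TPM (0.01 ± 0.06, adjusted p = 0.909). MRPS28 was at 29.1, 30.9 and 36.5 TPM and at 34.2, 37.2 and 33.4 TPM (0.12 ± 0.09, adjusted p = 0.306). The groups of MRPS27 and MRPS28 overlapped.

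The symbols leave out 5 further proteins of the mitochondrial ribosome. DAP3, a GTP-binding protein of the small subunit, fell from 105.4, 112.5 and 107.9 TPM to 78.3, 70.7 and 76.9 TPM (log2 difference -0.52 ± 0.05, limma adjusted p = 0.000118). CHCHD1 rose from 21.8, 18.6 and 22.7 TPM to 30.5, 30.1 and 31.6 TPM (0.53 ± 0.08, adjusted p = 0.00102), and AURKAIP1 from 110.0, 100.5 and 110.4 TPM to 120.4, 122.1 and 130.4 TPM (0.22 ± 0.06, adjusted p = 0.0116). The small subunit thus held changes of both signs among these proteins too. PTCD3 was at a mean of 38.6 TPM in control and 37.7 TPM in DCBQ (-0.03, adjusted p = 0.653), and GADD45GIP1 of the large subunit at 110.7 and 123.6 TPM (0.15, adjusted p = 0.0728). With all 5 added, the ratio of large to small sums was 1.58, 1.55 and 1.59 in control and 1.66, 1.61 and 1.67 in DCBQ.

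Factors that build the mitochondrial ribosome were lower more often than higher. Of 30 tested genes for assembly and rRNA modification, 16 were lower, 2 higher and 12 did not pass, a share of 53.3% lower beside 39.5% of all tested genes, with a median of -0.25 beside -0.21. The share and median were near those of the 9010 tested protein-coding genes in the members' range of levels. Of those genes 50.8% were lower, with a median of -0.24. Without control 1 the count of lower genes was 10. NGRN, which is needed for the large subunit RNA, fell from 99.5, 88.1 and 99.8 TPM to 46.3, 41.8 and 48.0 TPM (log2 difference -1.06 ± 0.07, limma adjusted p = 1.4e-05). MPV17L2, an inner membrane protein that helps subunits to assemble, fell from 54.4, 52.2 and 53.9 TPM to 33.5, 34.2 and 33.2 TPM (-0.65 ± 0.05). RPUSD3, a pseudouridine synthase, fell from 119.0, 111.5 and 132.3 TPM to 77.3, 73.9 and 74.4 TPM (-0.68 ± 0.07). In all 3 the groups stood far apart.

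Of 15 tested translation factors, 9 were lower and 6 did not pass (60.0% lower, beside 39.5% of all tested genes), with a median of -0.26. Among the 9010 tested protein-coding genes in the members' range of levels 50.8% were lower, with a median of -0.24. By limma 0 of the 15 factors were higher, and 0 at an unadjusted p under 0.05. GUF1, a ribosome-associated GTPase, fell from a mean of 26.6 to 17.0 TPM (limma adjusted p = 0.000192), TACO1, an activator of cytochrome oxidase translation, from 59.7 to 44.5 TPM (0.000444), and MTRFR, a rescue factor of the release factor family, from 37.8 to 28.9 TPM (0.00304). With a median-of-ratios scaling, 4 of the 15 were lower and 2 higher, and of the assembly genes 6 of 30 were lower and 5 higher. Their medians were then -0.02 and -0.03, beside -0.004 for all tested genes. GUF1, TACO1, NGRN, MPV17L2 and RPUSD3 still passed as lower, while MTRFR did not (adjusted p = 0.101, over alternatives up to 0.186).

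Genes for mitochondrial transcription and RNA handling went both ways, with 7 of 19 lower (36.8%, beside 39.5% of all tested genes), 4 higher and a median of -0.02. After median-of-ratios scaling 4 were lower (21.1%, beside 23.3% of all tested genes) and 8 higher (42.1%, beside 23.9%), with a median of 0.21. The count of higher genes was 2 without control 1, 1 without control 2, control 3, DCBQ 1 or DCBQ 3. SUPV3L1 and PNPT1, the helicase and the nuclease that degrade mitochondrial RNA together, fell from means of 50.3 to 26.2 TPM and of 34.1 to 18.6 TPM (limma adjusted p = 1.4e-05 and 4.1e-05). LRPPRC, which stabilises mitochondrial mRNAs, fell from 95.2 to 64.0 TPM (adjusted p = 7.0e-05). These 3 had log2 differences of -0.92, -0.84 and -0.57.

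Nuclear regulators of mitochondrial genes were mostly lower, with 6 of 8 tested lower and 1 higher, a median of -0.58. The factors whose motifs were searched above were among them. GABPB1, the partner subunit of the ETS factor GABPA, was at 45.4, 43.3 and 41.3 TPM in control and at 18.9, 19.1 and 20.9 TPM in DCBQ (log2 difference -1.10 ± 0.07, limma adjusted p = 8.2e-06), while GABPA itself did not pass (-0.19, adjusted p = 0.213). NRF1 fell from 29.4, 24.2 and 32.9 TPM to 16.1, 12.5 and 16.7 TPM (-0.89 ± 0.14, adjusted p = 0.000889), and YY1 from 65.4, 63.5 and 61.0 TPM to 43.3, 49.9 and 48.4 TPM (-0.42 ± 0.07, adjusted p = 0.00100). PPRC1, a coactivator of the PGC-1 family, fell from a mean of 74.4 to 44.0 TPM (-0.74) and MYC from 368.2 to 260.6 TPM (-0.50). The same 6 of 8 and 1 of 8 were counted after median-of-ratios scaling, beside 23.3% of all tested genes lower and 23.9% higher. Whether these levels bear on the members was not tested.

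The products and the RNA of the mitochondrial ribosome were read beside its proteins. The 13 mitochondrially encoded mRNAs summed to 170260 ± 4506 TPM (SD, n = 3) in control and 241003 ± 3289 TPM (n = 3) in DCBQ. Of these mRNAs 12 were higher (92.3%, beside 13.4% of all tested genes), with a median of 0.55. After quantile normalization 6 of the 13 were higher (46.2%, beside 22.8% of all tested genes) and 1 lower. The 2 ribosomal RNAs did not follow. MT-RNR1 was at 3830, 4068 and 3885 TPM in control and at 3610, 3508 and 2800 TPM in DCBQ (log2 difference -0.26 ± 0.09, limma adjusted p = 0.0415), a call lost without control 1, control 2 or control 3. MT-RNR2 was at 15287, 16106 and 15162 TPM and at 14392, 14722 and 12521 TPM (-0.16 ± 0.07, adjusted p = 0.0696). DCBQ 3 was the lowest library for both, and poly(A) selection limits what these libraries say about ribosomal RNA.

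The nuclear subunits of the respiratory chain and ATP synthase, which assemble with those products, were mostly higher. Of 73 tested, 39 were higher (53.4%, beside 13.4% of all tested genes and 19.5% of the members), 6 lower and 28 did not pass. Their median was 0.25, and their sum went from 8603 ± 256 TPM to 10488 ± 395 TPM (SD, n = 3 each). Without control 1 or control 3 the count of lower subunits was 2 or 3. After median-of-ratios scaling 59 of the 73 were higher (80.8%, beside 23.9% of all tested genes). Of 47 genes for RPL proteins of the cytosolic ribosome, 22 were lower (46.8%) and 1 higher, with a median of -0.19. Of 31 RPS genes 10 were lower (32.3%) and by limma 0 higher, with 0 also at an unadjusted p under 0.05 and a median of -0.10. Over all tested genes 39.5% were lower and the median was -0.21. After median-of-ratios scaling 3 RPL genes were lower and 9 higher and 7 RPS genes were higher, with medians of 0.05 and 0.14. Quantile normalization kept more of them lower than higher. It gave 23 lower (48.9%) and 1 higher RPL genes, and 11 lower (35.5%) and 2 higher RPS genes, beside 23.7% of all tested genes lower. The RPL and RPS medians were then -0.16 and -0.07. In every scaling run the medians of the members lay between those of the cytosolic ribosomal proteins and those of the nuclear respiratory subunits.

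**Figure D5:**
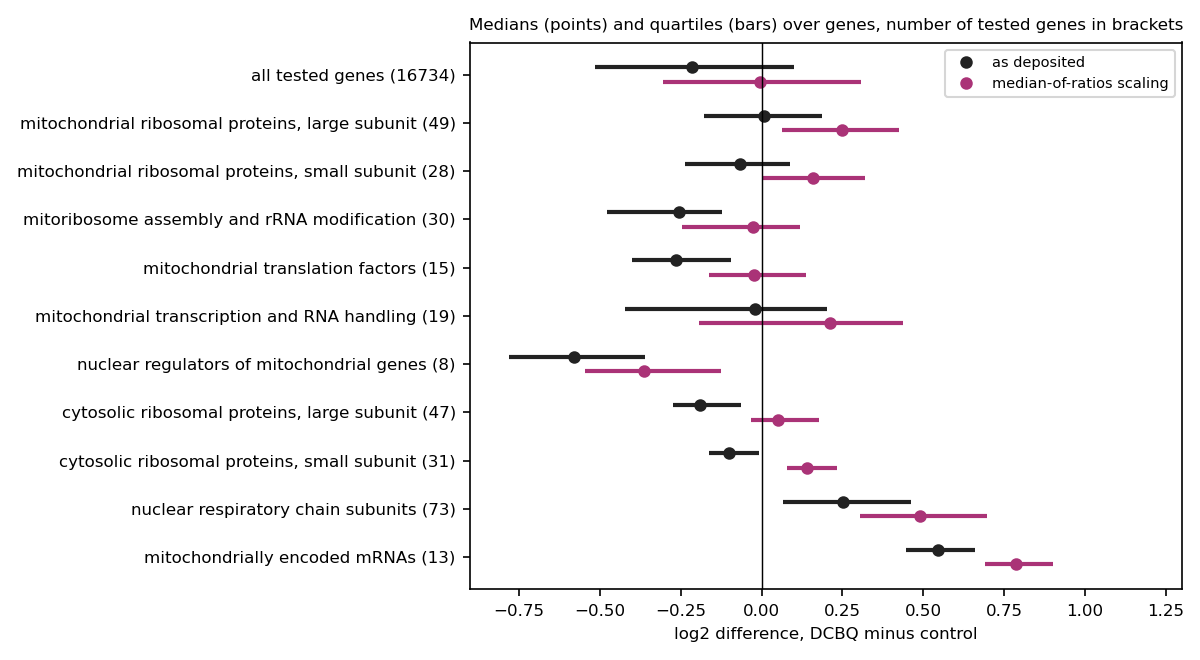
Median log2 difference between DCBQ and control (points) and quartile range over genes (bars) for the large and small mitochondrial ribosomal proteins and the other gene groups, as deposited (black) and after median-of-ratios scaling (purple). As deposited, the large and small subunit medians are 0.01 and -0.07, all tested genes are at -0.21, nuclear respiratory chain subunits at 0.25 and regulators at -0.58, and scaling moves all groups to the right.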

How the data were processed

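RNA-seq libraries of poly(A) RNA from SV-HUC-1 cells (3 control, 3 DCBQ) were analysed from 1 table of TPM values that the authors deposited. Per the submitters' processing notes, the genome build was hg38 and the tools were DESeq2 1.34.0, StringTie 2.1.7, HISAT2 2.2.1, Trimmomatic 0.38 and FastQC. How TPM were computed, which annotation was used, and how strand and multi-mapped reads were handled is not given in the sources used here. TPM keep no depth, so no count test, interval or detection floor is given.

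Symbols came from a table of identifiers (42013 matched), with GENCODE 29 for the rest and for gene types and coordinates on GRCh38 (58437 identifiers found). Of the listed genes, MAP1D and FASTKD4 were not matched. A leukocyte marker of the lists is not reported here. Genes with a mean of at least 1 TPM were tested with limma 3.58.1 in R 4.3.3 (lmFit, eBayes with trend, group as the only term) on log2(TPM + 1), two-sided, with Benjamini-Hochberg adjustment over 16734 genes and calls at an adjusted p under 0.05. All adjusted p-values are from this fit unless another setting is named. The test was checked on simulated data in which 50 genes were changed by each size. It called 28% of log2 changes of 0.3, 54% of 0.5, 92% of 1 and 98% of 2. Far fewer genes changed there than were called here. Changes as small as those of most members can be missed, so a gene that did not pass may still differ. Log2 differences with a pseudocount of 1 understate changes of low genes. Promoters are from RefSeq GRCh38.p14. The labels do not say whether same-numbered libraries of the groups were paired, and the main fit did not pair them.

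The members, lists and alternatives were chosen with earlier results of these data known. Named members are the 8 largest called increases and decreases without overlap, the 3 most and 3 least abundant of each subunit, and 11 members with a special role. From 4 other lists the 3 genes with the smallest p were named, and all 5 ribosomal proteins with other symbols. Other genes, among them MRPL17, MRPS9, MRPS34, GABPA, NRF1 and YY1, were named after their values had been seen. Alternatives were median-of-ratios scaling, quantile normalization, rescaling without mitochondrial genes, pseudocounts of 0.1 and 5, no filter or a minimum mean of 5 TPM, eBayes without trend, robust eBayes, the replicate number as a block, each library left out, and the subunit assignment.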

Additional observations from a re-analysis of the deposited data

How the results depend on the processing

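The count of all genes called was within 1.5 times its main value under every alternative run, and so was the count of called members. Scaling moved the split: members called higher numbered 34 under quantile normalization, 37 under median-of-ratios scaling and 26 without mitochondrially encoded genes, and members called lower 4, 3 and 7. With 1 library left out, all calls numbered 7657 to 8444, called members 26 to 33, higher members 10 to 16 and lower members 15 to 18. The large minus small difference of medians, 0.076, was 0.04 under quantile normalization, 0.032 with subunits by place in the structure, and 0.021 to 0.103 with 1 library left out. The ratio of sums was 2.62% higher by structure. The cause was not tested.

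Among the called members, the sign turned for MRPL24 (0.04), MRPS22 (0.01) and MRPS26 (0.07) under median-of-ratios scaling and for MRPL30 (0.01) under quantile normalization, and none of these then passed. Named genes that did not pass as deposited turned as follows. Under quantile normalization the log2 difference was 0.005 for MRPL37, 0.261 for MRPS18C, 0.087 for MRPS23, 0.156 for MRPS36 and 0.205 for PTCD3. Under median-of-ratios scaling it was 0.142 for MRPL37, 0.212 for MRPS18C, 0.059 for MRPS23, 0.174 for MRPS24, 0.144 for MRPS36 and 0.201 for PTCD3, and PTCD3 alone of these passed under both. Without mitochondrially encoded genes it was 0.034 for MRPL37, 0.11 for MRPS18C, 0.066 for MRPS24, 0.052 for MRPS36 and 0.096 for PTCD3. With 1 library left out the values ran from -0.023 to 0.065 for MRPL12, -0.004 to 0.025 for MRPL3, -0.02 to 0.092 for MRPL45, -0.007 to 0.097 for MRPS15, -0.136 to 0.074 for MRPS18C, -0.032 to 0.067 for MRPS27, -0.409 to 0.236 for MRPS36 and -0.069 to 0.001 for PTCD3. The cause was not tested.

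The labels do not say whether the replicate numbers pair the libraries. Deviations of same-numbered libraries correlated at -0.037, 0.045 and 0.046. Libraries numbered 2 and 3 correlated best with their own number in the other group, and those numbered 1 did not. With 3 libraries a group, these values cannot settle whether the libraries were paired. With the replicate block 8500 genes and 37 members (17 higher, 20 lower) were called, and the large minus small difference stayed at 0.076. Sequencing depth is unknown, and 3 libraries a group limit the precision of differences as small as those of most members.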

Other observations

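Several members start back to back with another gene. A divergent protein-coding start within 1000 bases was found for 17 of 78 members (21.8%), beside 7.38% of 19951 protein-coding genes. MRPL46 and MRPS11, of the large and the small subunit, start 34 bases apart, and MRPL46 was lower in DCBQ (log2 difference -0.31, limma adjusted p = 0.0253) while MRPS11 did not pass (-0.10, adjusted p = 0.183). MRPL36 faces NDUFS6, a subunit of respiratory complex I, which was higher (0.25, adjusted p = 0.0236), and MRPL47 faces NDUFB5, another complex I subunit, which was lower (-0.59, adjusted p = 0.0338). Of the 15 pairs with both genes tested, both were called in 1, MRPL10 and LRRC46, and both of these were lower.

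Of the family's pseudogenes with a mean of at least 1 TPM, MRPL45P2, MRPS18AP1, MRPS31P4 and MRPS31P5 were lower and MRPL3P1 did not pass. How reads shared with the parent genes were counted is not known, so these values are uncertain. MRPS31P5 went from 11.7, 8.44 and 9.03 TPM in control to 0.759, 4.75 and 4.57 TPM in DCBQ (limma adjusted p = 0.0183), and MRPS31P4 from 6.70, 8.89 and 6.48 TPM to 2.41, 2.79 and 2.86 TPM (adjusted p = 0.000326). Their parent MRPS31 was at 32.9, 31.8 and 34.7 TPM in control and at 32.2, 33.2 and 31.2 TPM in DCBQ and did not pass (-0.04, adjusted p = 0.602). MRPS18AP1 went from 1.57, 1.60 and 2.71 TPM to 0.213, 0.236 and 0.268 TPM (adjusted p = 0.00200), in the same direction as MRPS18A.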
